A study of Mus musculus with 8 samples.

Results

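The 10 genes examined, all markers of injured or repairing kidney tubules, were Havcr1, Lcn2, Spp1, Clu, Vcam1, Timp1, Krt20, Sox9, Cd44 and Gdf15. They were chosen by symbol as established markers of tubular injury and repair, and the rule uses no measured value. The array carried 14 probes for the 10 genes. Of these genes 9 were measured, among 14209 genes measured in all, and Sox9 was not well above background on any array.

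The data were 8 one-colour Agilent microarrays of whole mouse kidney, 4 labelled control and 4 labelled cinacalcet. All mice were male and 12 weeks old by the labels, and no strain or genetic alteration is named. Controls ate standard chow, and treated mice received cinacalcet at 1 mg per g of body weight for 5 days. Cinacalcet is a calcimimetic, a drug that sensitises the calcium-sensing receptor to extracellular calcium. Kidneys were snap frozen and total RNA was labelled with Cy3. Whether each sample came from a mouse of its own is not stated, and the p-values speak only of the spread among these 8 samples.

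Levels are given throughout as log2 of the processed spot intensity minus the 75th percentile of the same array, so that 0 is the level of that percentile and 1 unit is a doubling. That percentile was 202.9 to 257.1 intensity units, and the share of spots well above background was 51.8% to 58.0%. The lowest level still well above background lay between -4.99 and -4.38. Of 12 markers of other nephron segments and the glomerulus 11 were measured, among them Slc12a3 of the distal convoluted tubule at 2.47 to 3.09 and Aqp2 of the collecting duct at 3.69 to 4.68. Markers of the labelled tissue were thus present. The labels and the data parted on sex. On control 4, cinacalcet 2 and cinacalcet 3 none of 4 Y-linked genes was well above background, and Xist lay at 0.46 to 0.95. The remaining 5 had at least 3 of these genes above background, with Xist at -6.99 to -4.22. They are called Y-positive here and the other 3 Y-negative, and values are also given with this split as a block in the fit and for the Y-positive arrays alone. Across all genes, 9.54% had the Y-negative arrays above all 5 others and 14.9% had them below.

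Healthy tubule cells express most of these markers weakly or in few cells. After ischaemia, toxins or obstruction, proximal tubule cells dedifferentiate, shed their transport programme and switch on secreted and surface proteins, of which HAVCR1 (kidney injury molecule KIM-1) and LCN2 (NGAL) reach the urine and serve as clinical readouts of acute kidney injury. Another group that includes Vcam1 and Sox9 marks cells that are repairing or that fail to complete repair. Several of the 10 are also made outside injured tubules, for example Krt20 by the surface cells of the urothelium and Cd44 by leukocytes.

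Promoter windows from RefSeq (GRCm38.p6), running from 250 bases before to 50 bases after an annotated start, were found for 7 of the 10 genes and gave 11 windows. Clu, Vcam1 and Sox9 had no window. They were searched on both strands for an AP-1 motif (TGANTCA), a C/EBP motif (TTGCNNAA), a kappaB motif and a TATA motif (TATAAA), which were present in 7.81%, 10.8%, 8.46% and 13.6% of 32851 windows of the same length. The following 3 windows are shown because Cd44 alone passed the test, because C/EBP transcripts rose in the same kidneys and the window of Lcn2 holds a C/EBP match, and because Krt20 varied most between arrays. They are chr2:102901616-102901915, chr2:32387690-32387989 and chr11:99438104-99438403, all on the minus strand and written 5′ to 3′, and capitals mark a motif match.
Cd44: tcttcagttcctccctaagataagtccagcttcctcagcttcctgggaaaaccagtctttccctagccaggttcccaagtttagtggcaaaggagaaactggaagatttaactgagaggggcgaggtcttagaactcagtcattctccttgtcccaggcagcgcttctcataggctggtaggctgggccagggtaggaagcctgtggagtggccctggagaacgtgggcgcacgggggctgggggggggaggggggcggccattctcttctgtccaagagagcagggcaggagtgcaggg
Lcn2: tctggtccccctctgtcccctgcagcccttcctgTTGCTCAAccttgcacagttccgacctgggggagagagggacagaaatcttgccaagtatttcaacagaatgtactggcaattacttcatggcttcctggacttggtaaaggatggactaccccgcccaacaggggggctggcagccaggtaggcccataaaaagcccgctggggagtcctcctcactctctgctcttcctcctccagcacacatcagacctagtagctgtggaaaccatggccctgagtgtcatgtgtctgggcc
Krt20: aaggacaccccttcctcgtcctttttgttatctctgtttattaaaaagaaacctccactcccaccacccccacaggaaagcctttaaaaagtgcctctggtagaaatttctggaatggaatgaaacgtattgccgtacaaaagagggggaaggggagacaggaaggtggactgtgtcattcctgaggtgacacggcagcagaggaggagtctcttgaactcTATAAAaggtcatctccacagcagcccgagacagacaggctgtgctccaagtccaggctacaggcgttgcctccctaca
The window of Lcn2 held the C/EBP match TTGCTCAA beginning at position -216 relative to the start. That of Krt20 held TATAAA at position -29, and that of Cd44 held none of the 4 motifs. Among the other windows, matches were found in 1 of the Spp1 windows for TATAAA and in another for C/EBP, and in 1 window of Havcr1 each for C/EBP and AP-1. No overlap between different motifs occurred. A match describes the letters only.

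Of the 9 measured markers 1 differed between cinacalcet and control kidneys, and it was lower. This was Cd44, with an adjusted p under 0.05 in limma with Benjamini-Hochberg adjustment over all 14209 genes. None was higher. Across all genes 8.02% passed, 3.37% higher and 4.64% lower. The estimates of 5 markers were above 0 and those of 4 were below, and their median log2 fold change was 0.21 beside -0.03 over all genes. The groups did not overlap for 1 of the 9 markers, against 17.8% of all genes.

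**Figure D1:**
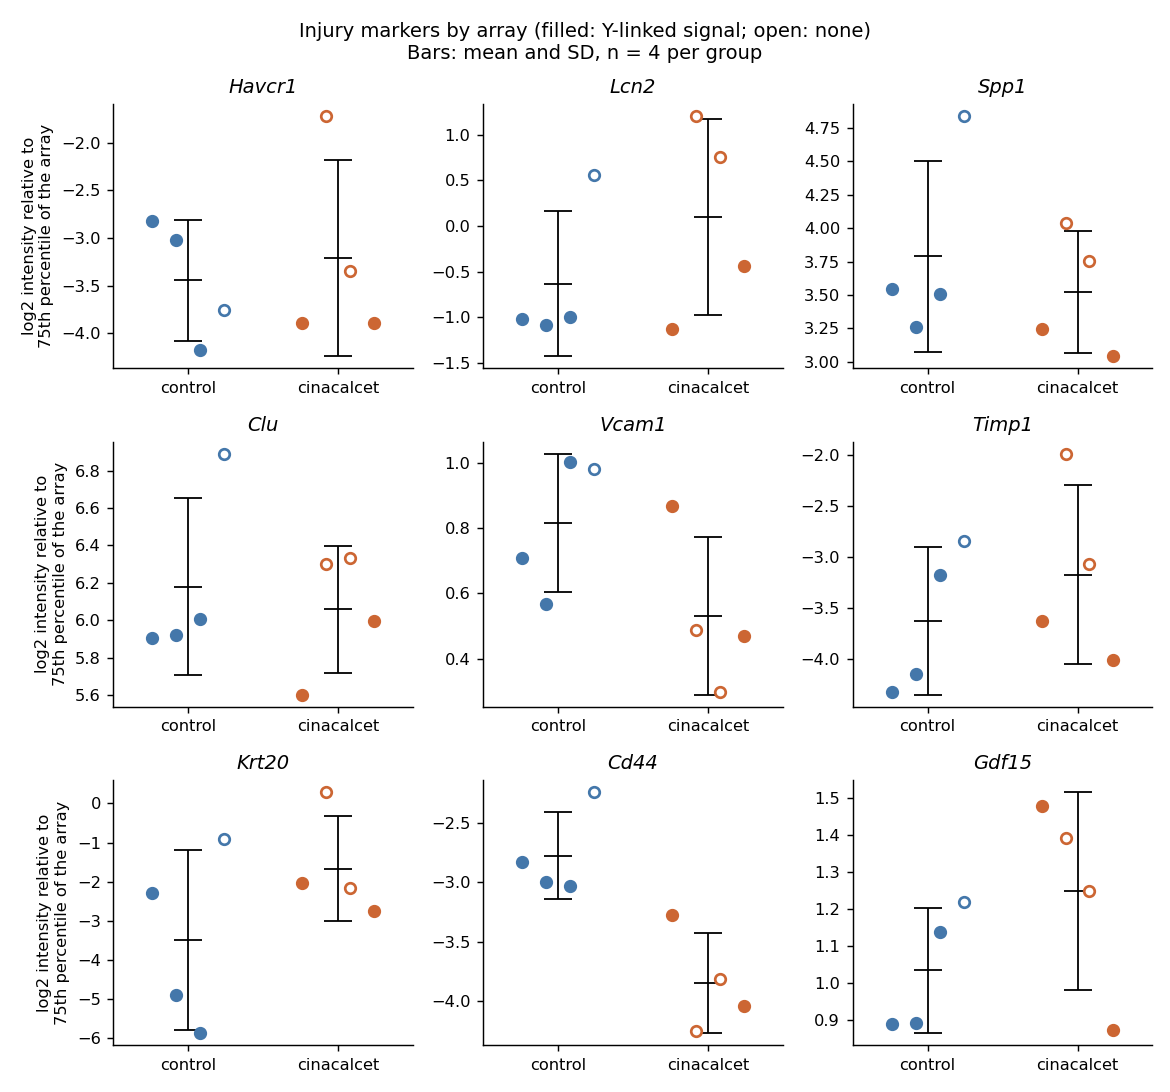
Levels of the 9 measured markers on each array, as log2 of intensity relative to the 75th percentile of the array, for 4 control and 4 cinacalcet arrays. Filled points are Y-positive arrays, open points the 3 Y-negative ones, and bars give the mean and SD of 4 arrays. Cd44 is the marker whose groups do not overlap, and the open points lie on top for Lcn2, Spp1, Clu and Timp1.

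The secreted and shed markers come first. Havcr1 encodes a surface receptor for phosphatidylserine that lets injured proximal tubule cells take up dead neighbours and that is shed into urine. It lay at -2.82, -3.02, -4.18 and -3.75 on control arrays 1 to 4 and at -3.89, -1.72, -3.35 and -3.89 on cinacalcet arrays 1 to 4. The spot was dim, at 12.5 to 72.7 intensity units, and it was not well above background on control 3. Only cinacalcet 2 stood above the control range. The means were -3.44 ± 0.63 and -3.21 ± 1.03 (SD, n = 4 each), and the log2 fold change was 0.23 ± 0.52 (SE; limma adjusted p = 0.803). On the Y-positive arrays the estimate turned to -0.55 (adjusted p = 0.419), and without cinacalcet 2 it turned to -0.27, so the sign for Havcr1 was not settled.

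Lcn2 encodes lipocalin 2, which binds the iron carriers of bacteria and is secreted by stressed distal tubules. Its level was -1.02, -1.08, -0.99 and 0.56 on the controls and -1.12, 1.21, 0.76 and -0.44 with cinacalcet. Highest were cinacalcet 2, cinacalcet 3 and control 4, the Y-negative arrays. The Y-positive ones spanned -1.12 to -0.44, and treated and control arrays overlapped. The group means of -0.63 ± 0.80 and 0.10 ± 1.07 (SD, n = 4 each) gave a log2 fold change of 0.73 ± 0.58 (SE; limma adjusted p = 0.438). With the split as a block the difference was 0.31 (adjusted p = 0.233) and on the Y-positive arrays 0.25 (adjusted p = 0.453). The estimate for Lcn2 ran from 0.36 without cinacalcet 2 to 1.14 without cinacalcet 1. When limma weighted the arrays by how closely they followed their group means it was 1.38 (adjusted p = 0.0404). The call for Lcn2 was made only under that setting, which called 38.3% of all genes.

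Spp1 encodes osteopontin, a secreted ligand of integrins that also slows the growth of calcium crystals in urine. Controls lay at 3.55, 3.26, 3.51 and 4.84, and treated kidneys at 3.25, 4.04, 3.75 and 3.04. Control 4 was the highest array, followed by cinacalcet 2 and cinacalcet 3. The log2 fold change was -0.27 ± 0.37 (SE, n = 4 each; limma adjusted p = 0.670) and reached -0.53 with the split as a block (adjusted p = 0.0553). Without control 4 the estimate for Spp1 was 0.08.

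Clu encodes clusterin, a secreted chaperone that binds unfolded proteins and debris of dead cells. Its levels of 5.90, 5.92, 6.01 and 6.89 in controls and 5.60, 6.30, 6.33 and 6.00 with cinacalcet followed the same array pattern, with control 4 on top. The means of 6.18 ± 0.47 and 6.06 ± 0.34 (SD, n = 4 each) differed by less than their spread (log2 fold change -0.12 ± 0.26 SE, limma adjusted p = 0.791). For Clu the estimate was -0.30 with the split as a block (adjusted p = 0.127) and turned to 0.11 without control 4 and to 0.03 without cinacalcet 1.

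Timp1 encodes an inhibitor of matrix metalloproteinases that also signals through Cd63. It was dim, at 12.4 to 60.1 intensity units, and not well above background on control 2. Controls 1 to 4 lay at -4.33, -4.15, -3.18 and -2.84, and cinacalcet 1 to 4 at -3.63, -1.99, -3.07 and -4.01. The groups overlapped over most of their range, and cinacalcet 2 alone exceeded every control. The log2 fold change was 0.45 ± 0.49 (SE, n = 4 each; limma adjusted p = 0.585), and 0.15 with the split as a block (adjusted p = 0.776). For Timp1 the estimate was 0.055 without cinacalcet 2 and 0.10 with normexp, both below the SE.

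Gdf15 encodes a stress-induced hormone of the TGF-beta family that acts on the brainstem to reduce appetite. Control arrays read 0.89, 0.89, 1.14 and 1.22, and cinacalcet arrays 1.48, 1.39, 1.25 and 0.87. Cinacalcet 1 to 3 lay above all controls and cinacalcet 4 below all of them. The difference between means of 1.03 ± 0.17 and 1.25 ± 0.27 (SD, n = 4 each) was 0.21 ± 0.15 on the log2 scale (SE; limma adjusted p = 0.376). For Gdf15 the estimate was 0.17 with the split as a block and 0.20 on the Y-positive arrays, and it ran from 0.14 without cinacalcet 1 to 0.34 without cinacalcet 4.

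The adhesion markers follow. Cd44 encodes the main surface receptor for hyaluronan and also binds osteopontin. It was at -2.83, -3.00, -3.03 and -2.24 in controls and at -3.27, -4.25, -3.82 and -4.04 with cinacalcet. Every treated array lay below every control array, and the nearest pair was cinacalcet 1 and control 3. Means of -2.78 ± 0.37 and -3.85 ± 0.42 (SD, n = 4 each) gave a log2 fold change of -1.07 ± 0.25 (SE; 95% interval -1.64 to -0.50; limma adjusted p = 0.0403), a level 2.10-fold lower. Non-overlapping groups with the treated one lower were found for 9.80% of all genes. In bulk tissue, fewer cells of a type and less RNA per cell cannot be told apart.

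The Cd44 call was near the threshold and the spot was dim, at 12.5 to 42.9 intensity units. With the Y split as a block the log2 fold change was -1.09 (adjusted p = 0.0314). On the Y-positive arrays alone it was -0.70 (adjusted p = 0.120, with 7.85% of all genes called), and on the Y-negative ones -1.80, with no test. Each of 6 arrays ended the call for Cd44 when left out, with adjusted p of 0.0903, 0.0880 and 0.0828 without control 1, 2 and 3 and of 0.0986, 0.100 and 0.0846 without cinacalcet 2, 3 and 4. In these 6 fits 2.25%, 1.53%, 1.72%, 2.06%, 1.96% and 3.75% of all genes were called, and in the fits without control 4 and cinacalcet 1, in which Cd44 passed, 23.6% and 6.78%. A normexp background correction with an offset of 50 shrank the difference to -0.32 (adjusted p = 0.0834, with 7.60% of all genes called). The offset exceeds the processed intensities of this spot, so a smaller log2 difference was bound to follow. The adjusted p of Cd44 was 0.0798 without the background filter and 0.0581 with slide row as a block, where 1.78% and 6.48% of all genes were called. Of the 3 other Cd44 probes, 1 was above background on 2 control arrays and 1 treated array, with a log2 difference of -0.47, and the remaining 2 did not exceed background on any array, so no second probe measured Cd44 throughout.

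Markers of leukocytes moved in the same kidneys. Of 18 listed immune genes 12 were measured, and 58.3% of these passed the test, beside 8.02% of all genes. The list was chosen with earlier results of these data known, so the share is descriptive. Cx3cr1, Itgax, Adgre1, Csf1r and Ccr2, all expressed by macrophages, dendritic cells or monocytes, fell, while the neutrophil genes S100a8 and S100a9 rose. The summed level of the 12, relative to the 75th percentile on a linear scale, was 34.2 to 38.2 in controls and 24.4 to 30.7 with cinacalcet, and these ranges did not overlap. Csf1r alone, at 4.81 to 4.96 and 4.20 to 4.60 on the log2 scale, made up most of this sum on every array. The chemokine receptor Cx3cr1 fell by 1.46 ± 0.18 on the log2 scale (SE, n = 4 each; limma adjusted p = 0.00848), and the integrin Itgax, known as CD11c, fell by 1.19 ± 0.18 (adjusted p = 0.0134). Itgax is dim, and with normexp its log2 fold change was -0.51 (adjusted p = 0.00583). The T cell gene Cd3e was at 0.90 to 1.51 over the 8 arrays, and Cd3g and Ncr1 were not measured. Their part in the Cd44 result was not tested.

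The 3 genes whose levels on the 8 arrays, each centred on its own mean, lay closest to Cd44 were Nrep, Gbp2 and Gbp5, with root mean square differences of 0.13, 0.16 and 0.16 on the log2 scale. Gbp2 and Gbp5 encode interferon-inducible GTPases. For Havcr1 the nearest were Klhdc1, Rnf224 and Dmkn at the wider distances of 0.43, 0.45 and 0.46. Lcn2 had Apoc1, Uroc1 and Gc as its nearest genes at 0.16, 0.23 and 0.25, and all of these had the Y-negative arrays on top.

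**Figure D2:**
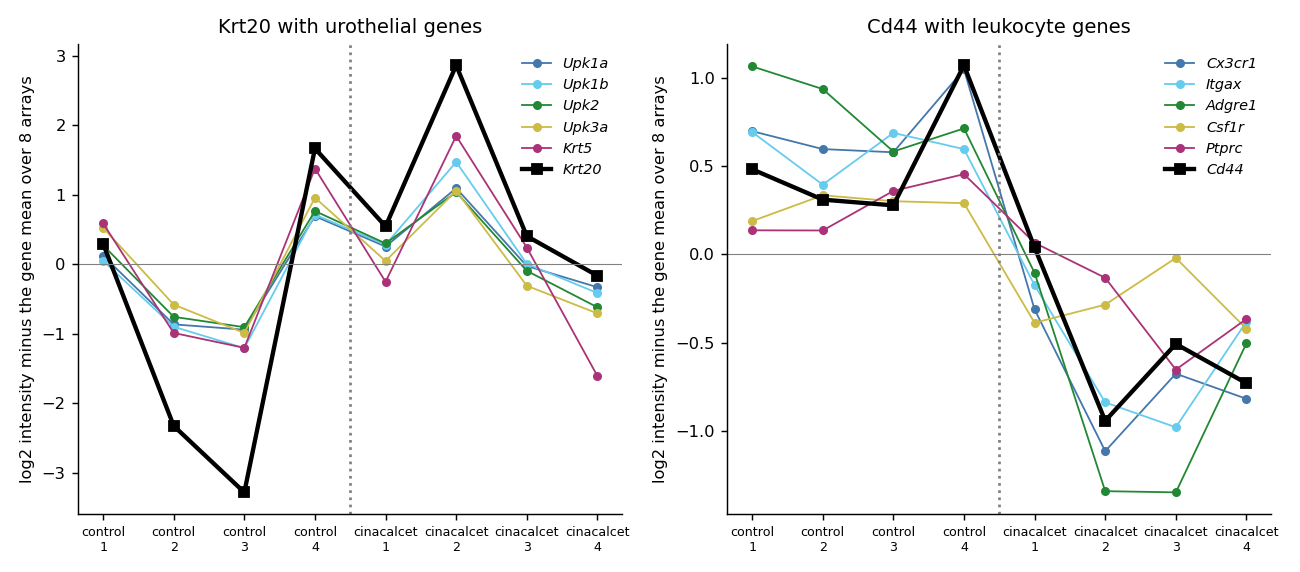
Levels by array, centred on each gene's mean over 8 arrays (log2), for Krt20 with 5 of 11 listed urothelial genes and for Cd44 with 5 of 12 measured leukocyte genes, all chosen after their values were seen. Krt20 and these urothelial genes are lowest on controls 2 and 3 or cinacalcet 4 and highest on control 4 and cinacalcet 2. Cd44 and the 5 leukocyte genes shown are lower on the cinacalcet arrays. Of the 12 measured leukocyte genes 9 had estimates below 0 and 3 above, and S100a8 and S100a9, not shown, were higher.

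Vcam1 encodes an endothelial adhesion molecule for leukocytes that also marks proximal tubule cells which fail to complete repair. Its levels were 0.71, 0.57, 1.00 and 0.98 in controls and 0.87, 0.49, 0.30 and 0.47 with cinacalcet. Cinacalcet 2, 3 and 4 lay below every control and cinacalcet 1 among them. The log2 fold change was -0.28 ± 0.15 (SE, n = 4 each; limma adjusted p = 0.251), from means of 0.82 ± 0.21 and 0.53 ± 0.24 (SD). On the Y-positive arrays it was -0.09 (adjusted p = 0.770). A second, dimmer Vcam1 probe gave -0.15, on the same side of 0.

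Krt20 encodes a keratin of urothelial surface cells that appears in damaged tubules. It was the most variable marker, at -2.28, -4.90, -5.86 and -0.91 in controls and -2.03, 0.29, -2.17 and -2.74 with cinacalcet. On controls 2 and 3 it was not well above background, and lay under the lowest levels that were so on these arrays (-4.55 and -4.45). The size of its difference is therefore not settled. Levels were -3.49 ± 2.29 and -1.66 ± 1.34 (SD, n = 4 each), and the log2 fold change of 1.82 ± 1.14 (SE; limma adjusted p = 0.331) had a 95% interval of -0.79 to 4.44. The estimate ran from 1.03 without control 3 to 2.68 without control 4. With normexp, whose offset shrinks log2 differences of dim spots, it was 0.52. With array weights, a setting that called 38.3% of all genes, Krt20 passed at 3.26 (adjusted p = 0.0340).

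Some urothelial genes had their high and low arrays in common with Krt20 and others did not. All 11 listed genes of papilla and urothelium were measured and none passed the test, with Trp63 at -0.34 (limma adjusted p = 0.0886) and the inner medullary urea transporter Slc14a2 at 0.49 (adjusted p = 0.119). The uroplakin Upk1a, a plaque protein of urothelial surface cells, read 2.46, 1.48, 1.40 and 3.03 in controls and 2.60, 3.43, 2.32 and 2.01 with cinacalcet. Its lowest arrays were controls 2 and 3, where Krt20 was not above background, and its highest were cinacalcet 2 and control 4, as for Krt20. Upk1b, Upk2, Upk3a and Krt5, which are plotted with it and were chosen after their values were seen, were also highest on these 2 arrays. Krt14 was highest on control 3, at -2.27 against -3.72 to -3.30 elsewhere, and Trp63 lay at 4.42 and 4.29 on controls 2 and 3 and at 3.96 on cinacalcet 2, unlike Krt20. The summed level of the 11 genes was 27.2 to 39.9 in controls and 23.5 to 41.1 with cinacalcet. The part of urothelium in the Krt20 values was not tested.

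Sox9 encodes a transcription factor switched on in regenerating tubules. Its 10 spots were averaged to -5.73 ± 0.31 in controls and -6.41 ± 0.13 with cinacalcet (SD, n = 4 each), at 3.05 to 6.02 intensity units. No array had it well above background, so no fold change is given and a difference was not detectable with this probe.

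**Figure D3:**
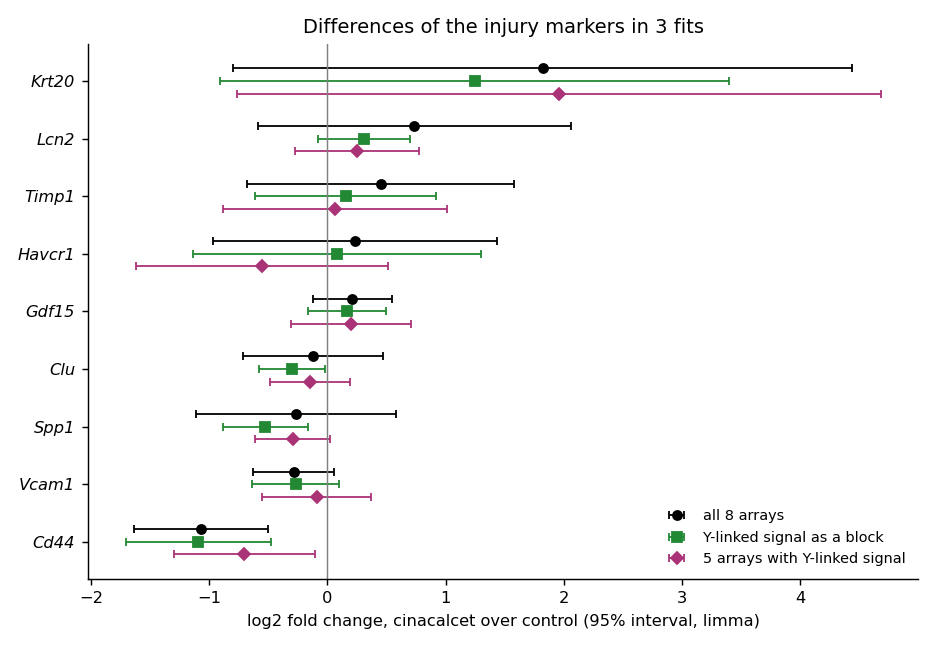
Log2 fold change of each measured marker, cinacalcet against control, with the unadjusted 95% interval from limma, in the fit to 8 arrays, in the fit with the Y split as a block and in the Y-positive arrays alone. The Cd44 intervals lie below 0 in all 3 fits, and the Krt20 interval of -0.79 to 4.44 is the widest in the first. With the Y split as a block those of Spp1 and Clu also lie below 0.

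The intervals give the range of changes that a fit leaves possible, and they differ between fits. In the fit to all 8 arrays the unadjusted 95% intervals reached up to a 1.04-fold level for Vcam1, 1.38-fold for Clu, 1.46-fold for Gdf15 and 1.49-fold for Spp1. Downwards they reached to a 1.54-fold lower level for Vcam1, 1.64-fold for Clu, 1.09-fold for Gdf15 and 2.16-fold for Spp1. In this fit Gdf15 and Vcam1 were thus the most narrowly bounded of the 9 markers and Krt20 the least. For Havcr1, Timp1 and Lcn2 the upper bounds were 2.70-fold, 3.00-fold and 4.16-fold, and for Krt20 21.7-fold. The lower bounds of these 4 were 1.96-fold, 1.60-fold, 1.51-fold and 1.73-fold lower. Krt20 was not well above background on controls 2 and 3, so its bounds are not settled. With the Y split as a block the log2 interval of Lcn2 was -0.08 to 0.70, against -0.59 to 2.06 without it. Those of Spp1 and Clu, at -0.88 to -0.17 and -0.58 to -0.02, then lay below 0, though neither passed the test. In simulated data of this design the test called 18% of genes given a log2 change of 0.5, 78% at a change of 1 and 94% at 2. The simulation drew noise independently for each gene and changed genes taken at random. Its shares do not give the power for single markers, of which Timp1, Havcr1, Lcn2 and Krt20 had an SE of 0.49 to 1.14. A p above the threshold does not show that a marker was unchanged.

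Companion genes of the same biology were then counted in 5 lists, 125 genes in all with 112 measured. The lists were chosen with earlier results of these data known, so their shares are descriptive. Of the 112 genes 6 rose and 10 fell, or 14.3%, beside 8.02% of all genes. Their median log2 fold change was -0.01, beside -0.03 for all genes. With the Y split as a block 7 rose and 24 fell, against 17.0% of all genes called. The count of 16 moved with single arrays, as did the count of all genes. The companion count was 4, 2, 3 and 30 without controls 1 to 4 and 13, 4, 3 and 7 without cinacalcet 1 to 4. Of all genes 2.25%, 1.53%, 1.72% and 23.6% were called without controls 1 to 4 and 6.78%, 2.06%, 1.96% and 3.75% without cinacalcet 1 to 4.

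Receptors, ligands and proteases that act with the markers mostly did not pass the test. Of 20 partners 14 were measured, 1 rose and none fell, a share of 7.14% beside 8.02% of all genes. The median log2 fold change was 0.02. The riser was Itgb3, the beta chain of a vitronectin and osteopontin receptor. It lay at -1.56, -1.32, -1.33 and -1.63 in controls and -0.89, -0.54, -0.74 and -0.16 with cinacalcet, without overlap (log2 fold change 0.88 ± 0.16 SE, n = 4 each; limma adjusted p = 0.0225). Without control 1, 2 or 3 or cinacalcet 2 or 3 the adjusted p of Itgb3 was 0.0527 to 0.0664. Lrp2 (megalin), which takes up filtered LCN2, had an estimate of 0.06 (adjusted p = 0.739), and the lipocalin receptor Slc22a17 one of -0.24 (adjusted p = 0.139).

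Among 37 other genes linked to tubule injury 35 were measured, and 1 rose and 2 fell. This share of 8.57% stood beside 8.02% of all genes, and the median log2 fold change was 0.15. Ceruloplasmin (Cp), the copper-carrying ferroxidase of plasma, rose from 1.90, 1.97, 1.89 and 2.01 to 2.65, 3.20, 3.14 and 3.19. Its log2 fold change was 1.10 ± 0.13 (SE, n = 4 each; limma adjusted p = 0.00801), and no array left out ended the call, the adjusted p then being 0.00164 to 0.0326. Il34, a macrophage growth factor made by tubule cells, fell by 1.63 ± 0.39 on the log2 scale (adjusted p = 0.0445). Control 4, at 1.37, lay near the treated arrays at 0.84 to 1.26, while the other controls lay at 3.08 to 3.16. B2m, the light chain of class I MHC, fell by 0.71 ± 0.15 (adjusted p = 0.0299). Without control 1, 2 or 3 or cinacalcet 2, 3 or 4 the calls for Il34 and B2m were both lost, and that for Il34 also without cinacalcet 1, with adjusted p up to 0.123 and 0.0911. Keratins Krt8, Krt18 and Krt19, vimentin and Cdh6 are in this list, and none of these passed. Of the 35 genes 12 had the Y-negative arrays on top, against 9.54% of all genes.

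Among 32 regulators of the injury response 28 were measured, 3 rose and 1 fell, a share of 14.3% beside 8.02% of all genes. The median log2 fold change was 0.01. Cebpb and Cebpd encode C/EBP transcription factors of the acute phase response, and Nfkbia encodes the inhibitor of NF-kappaB that NF-kappaB itself induces. Cebpb rose from 2.21, 2.22, 2.18 and 1.74 to 3.04, 3.14, 3.02 and 3.56 (log2 fold change 1.10 ± 0.16 SE, n = 4 each; limma adjusted p = 0.0113), and it passed with any 1 array left out. Nfkbia rose by 0.67 ± 0.10 (adjusted p = 0.0134), a call that was narrowly lost without control 2 (adjusted p = 0.05004). The adjusted p of Cebpd was 0.04999, just under the threshold, with a rise of 0.82 ± 0.21, overlapping groups and a loss of the call without control 1, 2 or 3 or cinacalcet 2, 3 or 4 (adjusted p up to 0.135). Yap1, the effector of the Hippo pathway, fell by 0.29 ± 0.07 (adjusted p = 0.0403) and was lost without any 1 array other than control 4 (adjusted p up to 0.120). The window of Lcn2 shown above holds a C/EBP match, a motif present in 10.8% of all windows. Lcn2 itself did not pass, and a link between C/EBP factors and Lcn2 was not tested. The cytokines Tnf, Il1b and Il6 were not measured.

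Fibrosis genes that passed the test were lower in all cases but 1. Of 16 listed genes 15 were measured, 6 fell and 1 rose, a share of 46.7% beside 8.02% of all genes. As the list was chosen with earlier results of these data known, this share is descriptive. The median log2 fold change was -0.37. Col3a1, a fibrillar collagen, fell from -0.01, -0.35, 0.14 and 0.80 to -1.42, -0.63, -1.42 and -1.66, which is 1.43 ± 0.29 on the log2 scale (SE, n = 4 each; limma adjusted p = 0.0286). Col1a2 fell by 0.67 ± 0.13 (adjusted p = 0.0248) and the macrophage growth factor Csf1 by 0.37 ± 0.08 (adjusted p = 0.0313). Tgfbr1, a receptor of TGF-beta, rose by 0.38 ± 0.07 (adjusted p = 0.0247). Of the 15 estimates 4 were above 0 and 11 below. The highest was Lox at 1.02, which was above background on 2 of 4 controls and did not pass (adjusted p = 0.0910). The other genes that fell, named here to complete the count, were Col1a1, Fn1 and Pdgfb. For Col3a1, Col1a2, Csf1 and Tgfbr1 the adjusted p was at most 0.0919 with 1 array left out, and none of them passed without control 1, 2 or 3 or without cinacalcet 3 or 4. Nor did Col1a2, Csf1 and Tgfbr1 pass without cinacalcet 2, or Col3a1 without cinacalcet 1. Beside these, the fibroblast and mural cell list had all 10 genes measured and 1 passed, a share of 10% beside 8.02% of all genes. It was Pdgfra, which rose by 0.60 ± 0.14 (limma adjusted p = 0.0385). Its adjusted p was up to 0.112 without control 1, 2 or 3 or cinacalcet 1, 2 or 3. The summed level of this list was 34.5 to 46.3 in controls and 37.6 to 52.8 with cinacalcet. The part of these cells was not tested.

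All 20 listed genes of the healthy proximal tubule were measured, with a median log2 fold change of -0.09. Of these 1 fell and none rose, a share of 5% beside 8.02% of all genes. The gene that fell was Gatm, which makes the creatine precursor guanidinoacetate. It fell from 4.05, 4.09, 4.19 and 4.30 to 3.47, 3.17, 2.97 and 2.28 (log2 fold change -1.19 ± 0.23 SE, n = 4 each; limma adjusted p = 0.0248), and the call was lost without control 1, 2 or 3 or cinacalcet 2 or 3 (adjusted p up to 0.0768). Cubn, the receptor that works with megalin, and the transcription factor Hnf4a had estimates of 0.21 and 0.05 and did not pass. With the split as a block 6 of the 20 fell and none rose, in a fit that called 17.0% of all genes. The lowest estimate, -3.88 for the amino acid transporter Slc7a13 (adjusted p = 0.429), came with levels of -5.63 to -3.29 on the Y-negative arrays and of 3.74 to 5.37 on the Y-positive ones.

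**Figure D4:**
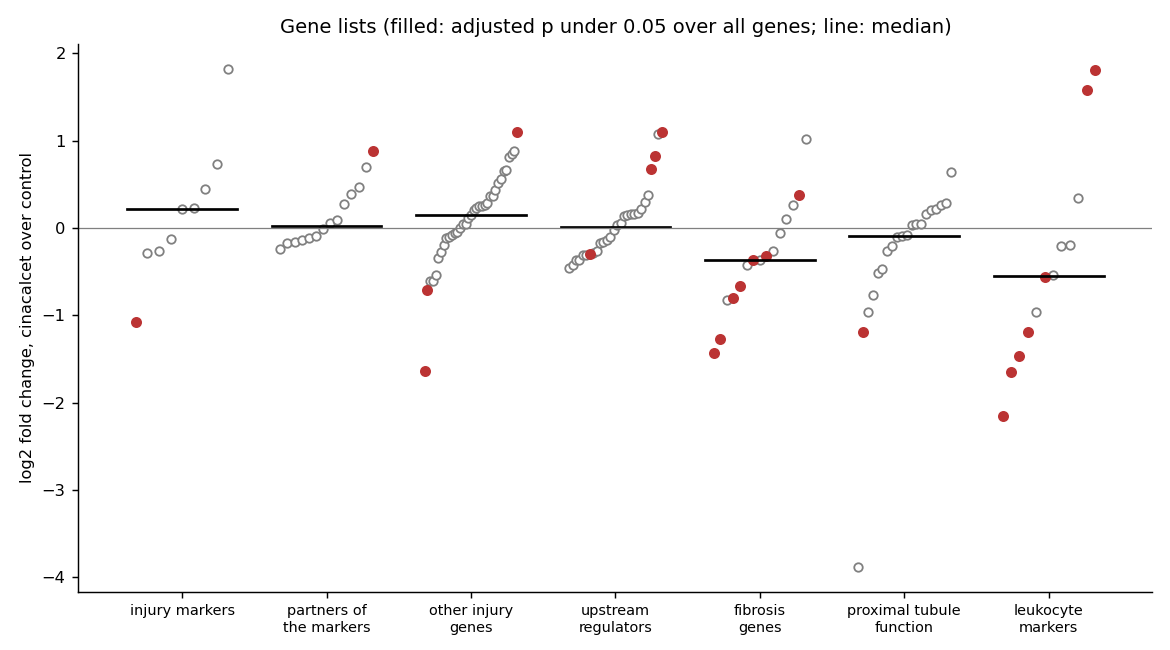
Log2 fold change of every measured gene in the injury markers and 6 other lists, cinacalcet against control, 4 arrays each. Filled points have an adjusted p under 0.05 in limma and the line in each list is its median, which is -0.37 for fibrosis genes and between -0.55 and 0.21 for all lists shown.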

How the data were processed

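RNA of 8 mouse kidneys was measured on Agilent arrays of 62976 spots in 1 colour, all on 1 slide in 1 scan. The deposited files give linear spot intensity, background-corrected per the file headers by Agilent Feature Extraction 11.0.1.1. Version 9.5 stands in the submitters' processing notes. No spot was saturated. Control spots and 118 to 147 outlier spots per array were left out, and repeated spots were averaged. Each log2 intensity was set relative to the 75th percentile of its array. A RefSeq gene table (GRCm38.p6) named 27223 probes by accession, after 31 probes without a usable spot on some array were dropped. A named probe was kept if at least 4 of 8 arrays had it well above background, and the brightest probe stood for its gene.

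The comparison used limma 3.58.1 (R 4.3.3) with Benjamini-Hochberg adjustment over 14209 genes, a threshold of 0.05 and no covariate. It was tested on simulated data. The number of arrays limits the precision. The markers, the lists and the Y split were chosen with earlier results of these data known. Genes named are the markers, up to 4 genes of each list past the threshold with the lowest p (up to 2 where none passed), and the 3 nearest to Cd44, Havcr1 and Lcn2. Others are named to complete a count or as background. The normexp alternative used median spot signals.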

Additional observations from a re-analysis of the deposited data

Results flagged for a closer look

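In 15 of 88 groups of 4 arrays, 1 array stood apart from the other 3 by Dixon's test at the 95% level, which chance alone gives in about 1 in 20 groups. The genes tested were the 44 named ones, which include several chosen for a difference between groups. In 11 of the 15 the array was control 4, one of the Y-negative arrays. These flags are not independent of each other or of the choice of genes. Uty and Eif2s3y helped to define the Y split, and Uroc1 and Gc were chosen for their likeness to Lcn2. The tally for control 4 can therefore not be set against the rate given by chance.

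Among the markers, Lcn2 was at 0.56 on control 4 against -1.08 to -0.99 on the other controls, and Clu at 6.89 against 5.90 to 6.01. Both of the genes near Lcn2 that stood apart did so on control 4, with Uroc1 at 3.49 against 1.69 to 1.90 and Gc at 4.92 against 2.87 to 3.00. The Y-linked genes Uty and Eif2s3y were at -6.41 and -6.60 there, against -1.39 to -1.11 and 0.73 to 0.86.

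Control 4 was low for Il34 (1.37 against 3.08 to 3.16), Cebpb (1.74 against 2.18 to 2.22) and Yap1 (3.96 against 4.05 to 4.06). It was high for Cebpd (2.62 against 2.01 to 2.07) and S100a9 (0.37 against -0.81 to -0.64). Among treated arrays, Cp on cinacalcet 1 was at 2.65 against 3.14 to 3.20, and Trp63 on cinacalcet 4 at 3.74 against 3.96 to 4.01. Rnf224, near Havcr1 in its pattern, was at -1.95 on control 2 against -2.41 to -2.39, and at -0.90 on cinacalcet 2 against -2.74 to -2.43. What sets these arrays apart was not tested.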

How the results depend on the processing

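Of 24 alternatives, 16 altered the processing or the model and 8 left out 1 array each. The marker count of 1 went to 0 with normexp at either scaling, without the background filter, with the replicate block, with slide row or slide column as a block, within slide row 1 or 2, and on the Y-positive arrays, to 3 with array weights, and to 0 to 1 with 1 array left out. The companion count of 16 became 5 without the filter, 51 with array weights, 31 with the Y split as a block, 0 with the replicate block, slide column or either row, and 2 to 30 with 1 array left out. The count of all genes, 1139, became 367 without the filter, 5438 with array weights, 2417 with the Y split as a block, 34 with slide column, 1 and 0 within rows 1 and 2 (3860 and 1068 at an unadjusted limma p under 0.05), 0 with the replicate block (2869 unadjusted) and 218 to 3356 with 1 array left out, highest without control 4. Deviations of same-numbered arrays from their group means correlated at 0.337, -0.544, -0.360 and -0.565 for replicates 1 to 4. Replicate 1 is Y-positive in both groups, and each other number joins a Y-positive and a Y-negative array. These values therefore cannot show whether the replicate numbers pair the arrays. Rows and columns hold 2 to 4 arrays, so within-row fits have little power. Slide columns 1 and 4 each hold arrays of only 1 group. The fit with slide column thus rests on cinacalcet 2 with control 3 and cinacalcet 3 with control 1. Both of these treated arrays are Y-negative and both controls Y-positive, so its estimates cannot be told apart from the Y split.

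Estimates turned for Havcr1 within row 1 (-0.017) and on the Y-positive arrays (-0.55), and spanned -0.27 to 0.46 with 1 array left out. They turned for Spp1 with array weights (0.18), slide column (0.37) and row 1 (0.12; left out -0.44 to 0.084), and for Clu under the same settings (0.15, 0.36 and 0.0038; left out -0.21 to 0.11). Klhdc1 turned with normexp (-0.059 and -0.017) and on the Y-positive arrays (-0.24; left out -0.044 to 0.41), Rnf224 within row 1 (-0.43) and on the Y-positive arrays (-0.20; left out -0.26 to 0.35), and Dmkn on the Y-positive arrays (-0.23). The cause was not tested. Of 24 named genes past the threshold none changed sign, 7 passed with any 1 array left out and 24 passed with the Y split as a block. A filter on all 8 arrays drops Havcr1, Timp1 and Krt20, whose dim spots limit what can be read from them.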

Other observations

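Other cell types of the kidney were described by lists of their markers. Of 12 genes of other nephron segments 11 were measured and none passed in limma (adjusted p under 0.05), with Slc26a4, the pendrin exchanger of intercalated cells, at 0.52 (adjusted p = 0.0809) and Calb1, the calcium-binding protein of the distal tubule, at -0.85 (adjusted p = 0.146). With the Y split as a block 1 of these 11 rose and 3 fell, among them Calb1 (limma adjusted p = 0.00637). That fit called 17.0% of all genes. Of 11 endothelial genes 9 were measured and 1 passed, a share of 11.1% beside 8.02% of all genes. It was Icam2, an adhesion molecule of resting endothelium. Icam2 fell by 0.54 ± 0.09 on the log2 scale (SE, n = 4 each; limma adjusted p = 0.0143, and 0.0511 without control 2).

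S100a9, a calcium-binding protein of neutrophils, rose from a mean of -0.45 ± 0.55 to 1.36 ± 0.27 (SD, n = 4 each; limma adjusted p = 0.0127), and the monocyte receptor Ccr2 fell from -2.45 ± 0.33 to -4.60 ± 0.67 (adjusted p = 0.0133). Ccr2 was above background on 2 of 4 treated arrays and its treated mean lies near the lowest measurable level, so the size of its fall is not settled, and with normexp it was -0.63 (adjusted p = 0.00978). S100a9 and Ccr2 both passed with any 1 array left out. Of 9 adipose genes 8 were measured and all 8 had estimates below 0. The share that passed was 12.5%, beside 8.02% of all genes. Ucp1, the uncoupling protein of brown fat, alone passed (limma adjusted p = 0.0140). Its log2 difference of -5.73 ± 0.89 (SE) is not a measured size, since 2 of 4 treated arrays had it above background and the treated mean of -4.83 lies near the lowest measurable level, and with normexp it was -3.02. The summed adipose level was 77.7 to 172.1 in controls and 56.2 to 98.5 with cinacalcet.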
